A study of Mus musculus with 24 samples.

Results

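Collagens are the main structural proteins of the extracellular matrix, and each collagen is a triple helix of chains that separate genes encode. The collagen genes were taken as every row of the count table whose symbol is Col, a number, the letter a and a number, which gave 44 of the 19175 genes, spread over 27 collagen types and 15 chromosomes. By structure, 11 encode fibrillar chains, 8 encode chains of basement membrane collagens, 6 encode type VI chains of the beaded filaments, 9 encode FACIT chains, which sit on the surface of fibrils, 4 encode transmembrane collagens and 6 encode short-chain, anchoring and other collagens. Of the 44, 41 had enough counts to be tested.

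Subcutaneous adipose tissue (sWAT) was profiled by RNA sequencing in 24 mice, 6 in each of 4 groups. The groups were female Gdf15-KO, female WT, male Gdf15-KO and male WT mice, and their question was what the loss of GDF15, a secreted stress cytokine, does to the fat depot of each sex. The Gdf15-KO mice lacked the gene in the whole body, were on a mixed C57BL/6/129/SvJ background and were bred as littermates of the WT mice from heterozygous parents. Every mouse was 20 weeks old, was kept on chow and fed ad libitum, and tissue was taken at lights off. Each library held between 22521358 and 24500575 expected counts. Gdf15 itself had 3 counts over the 6 female Gdf15-KO mice and 73 over the 6 female WT mice, and 4 over the male Gdf15-KO mice and 135 over the male WT mice, so the libraries carried their labelled genotype. Adipoq, the adiponectin gene that defines adipocytes, was at 1149 CPM (counts scaled to library size) or more in each library.

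In adipose tissue, type I and III fibrils made by fibroblasts and progenitor cells fill the septa and the space between cells. A basement membrane, built on a network of type IV collagen, wraps each adipocyte and each vessel, and type VI filaments link that basement membrane to the fibrils. Type IV chains are encoded by genes that lie in pairs, head to head, and share the DNA between their start sites.

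The transcripts of the fat matrix were dominated by a few chains. Divided by the length of the canonical transcript, Col3a1, the single chain of type III fibrils, led with 686 ± 201 CPM per kb (SD, n = 24). Next came both chains of type I collagen, Col1a2 with 425 ± 112 CPM per kb and Col1a1 with 293 ± 94.1 CPM per kb (SD, n = 24). These 3 chains made up 60.6% of the collagen level per length. Col4a1, the most abundant basement membrane chain, followed at 191 ± 36.4 CPM per kb (SD, n = 24). Col6a1, a type VI chain, stood at 142 ± 28.1 CPM per kb, and Col4a2, the partner of Col4a1, at 105 ± 19.3 CPM per kb. Neighbours further down the order often lay within their spread, as Col6a3 with 68.0 ± 14.4 and Col15a1 with 65.0 ± 14.8 CPM per kb did. The first 9 chains held 88.9% of the level and the first 13 held 96.4%.

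By class, the fibrillar chains held 64.6 ± 2.59% of the collagen level per length in female Gdf15-KO mice and 67.0 ± 4.48% in female WT mice (SD, n = 6). In males the fibrillar share was 67.0 ± 2.96% in Gdf15-KO mice and 66.7 ± 1.71% in WT mice. Basement membrane chains came second, with 17.9 ± 1.70% in female Gdf15-KO, 16.97 ± 2.98% in female WT, 17.9 ± 2.34% in male Gdf15-KO and 18.05 ± 1.598% in male WT mice. The 4 groups thus overlapped in the balance of the 2 main classes. Counted as reads, the 44 collagens took 1.31 ± 0.267% of all counts in female Gdf15-KO and 1.35 ± 0.484% in female WT mice, and 1.44 ± 0.248% in male Gdf15-KO and 1.34 ± 0.227% in male WT mice.

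3 collagens were too low to test. Col2a1, the cartilage fibril chain, had 64 counts over 21 of the 24 mice. Col19a1, a FACIT chain, had 104 counts over 22 mice. Col10a1, the chain of growth plate cartilage, had 0 counts in the 12 females, which allows a level of up to 0.0106 CPM, and 8 counts over 4 of the males. All of these lie near the detection limit of the libraries.

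Female and male Gdf15-KO mice were first set against WT mice of their own sex. No collagen gene was called between genotypes in either sex. Col1a1, with Col1a2 the most studied fibrosis transcript, had a lowest, median and highest value of 1169, 1439 and 2012 CPM in female Gdf15-KO mice, against 1184, 1565 and 3580 CPM in female WT mice. The groups overlapped, and the highest WT value came from a single mouse, female WT replicate 4. In males, Col1a1 was at 1234, 2057 and 2488 CPM in Gdf15-KO mice, against 1364, 1771 and 2413 CPM in WT mice. Fold changes were estimated with edgeR's quasi-likelihood test on all 14982 genes that passed a filter on low counts, with Benjamini-Hochberg adjustment. Calls are genes whose adjusted p lay below 0.05. The log2 fold change of Col1a1 was -0.27 with a 95% interval of -0.76 to 0.22 in females and 0.13 with an interval of -0.36 to 0.62 in males.

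**Figure D1:**
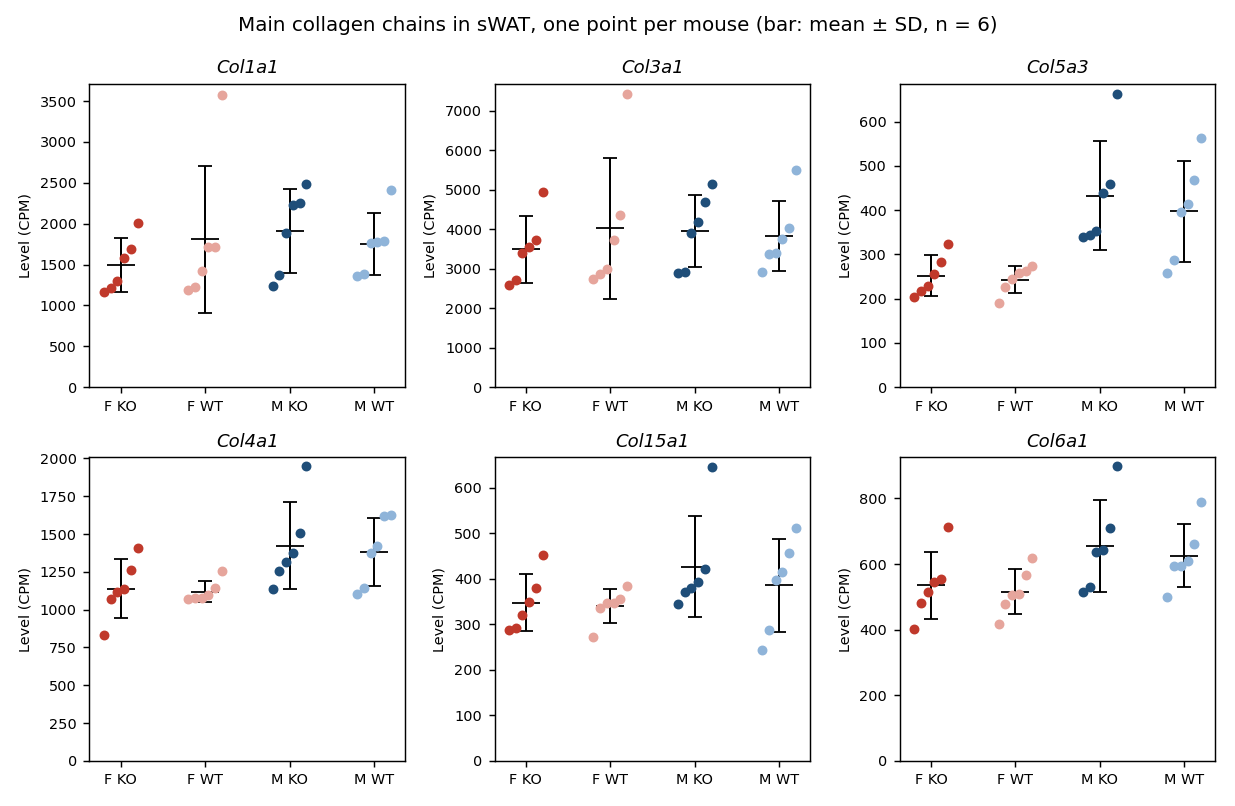
Level in CPM (vertical axes, from 0) of 6 main collagen chains in each mouse, by group on the horizontal axes (F female, M male, KO Gdf15-KO), with the mean and SD of 6 mice as bars. Gdf15-KO and WT points overlap in every panel, female WT replicate 4 stands alone at 3580 CPM for Col1a1 and 7423 CPM for Col3a1, and male Gdf15-KO replicate 15 is the highest male for Col4a1, Col5a3, Col6a1 and Col15a1.

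In counts, 0 of the 41 collagens were called in females, where 0.194% of all genes tested were, and 0 in males, where 0.200% of all genes were. Limma-voom also called 0 of the 41 in each sex, and DESeq2 called 0 of the 27 collagens in females and 43 in males to which it gave an adjusted p. At an unadjusted p under 0.05, edgeR gave 0 collagens in females, where 10.9% of all genes passed, and 1 in males, where 5.47% of all genes passed. The median log2 fold change of the 41 collagens was -0.04 in females and -0.01 in males, beside -0.00496 and 0.00122 over all genes tested. Of the 41, 19 had a positive sign in females and 18 in males. No collagen had groups without overlap between Gdf15-KO and WT mice of a sex, whereas 1.03% of all genes did in females and 0.481% in males.

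The intervals say how large a change could have been missed. Across the 13 main chains (types I, III, V, XV and XVIII, Col4a1, Col4a2 and Col6a1 to Col6a3), the 95% intervals ran from -0.76 for Col1a1 to 0.50 for Col6a3 in females. In males they ran from -0.42 for Col3a1 to 0.62 for Col1a1. A 2-fold change in either direction lay outside the interval for 32 of the 41 collagens in females and for 35 in males. In females the other 9 were Col7a1, Col9a1, Col9a2, Col9a3, Col13a1, Col22a1, Col24a1, Col25a1 and Col26a1, of which Col9a1, a type IX chain, had a median of 0.468 CPM in Gdf15-KO and 0.454 CPM in WT mice.

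**Figure D2:**
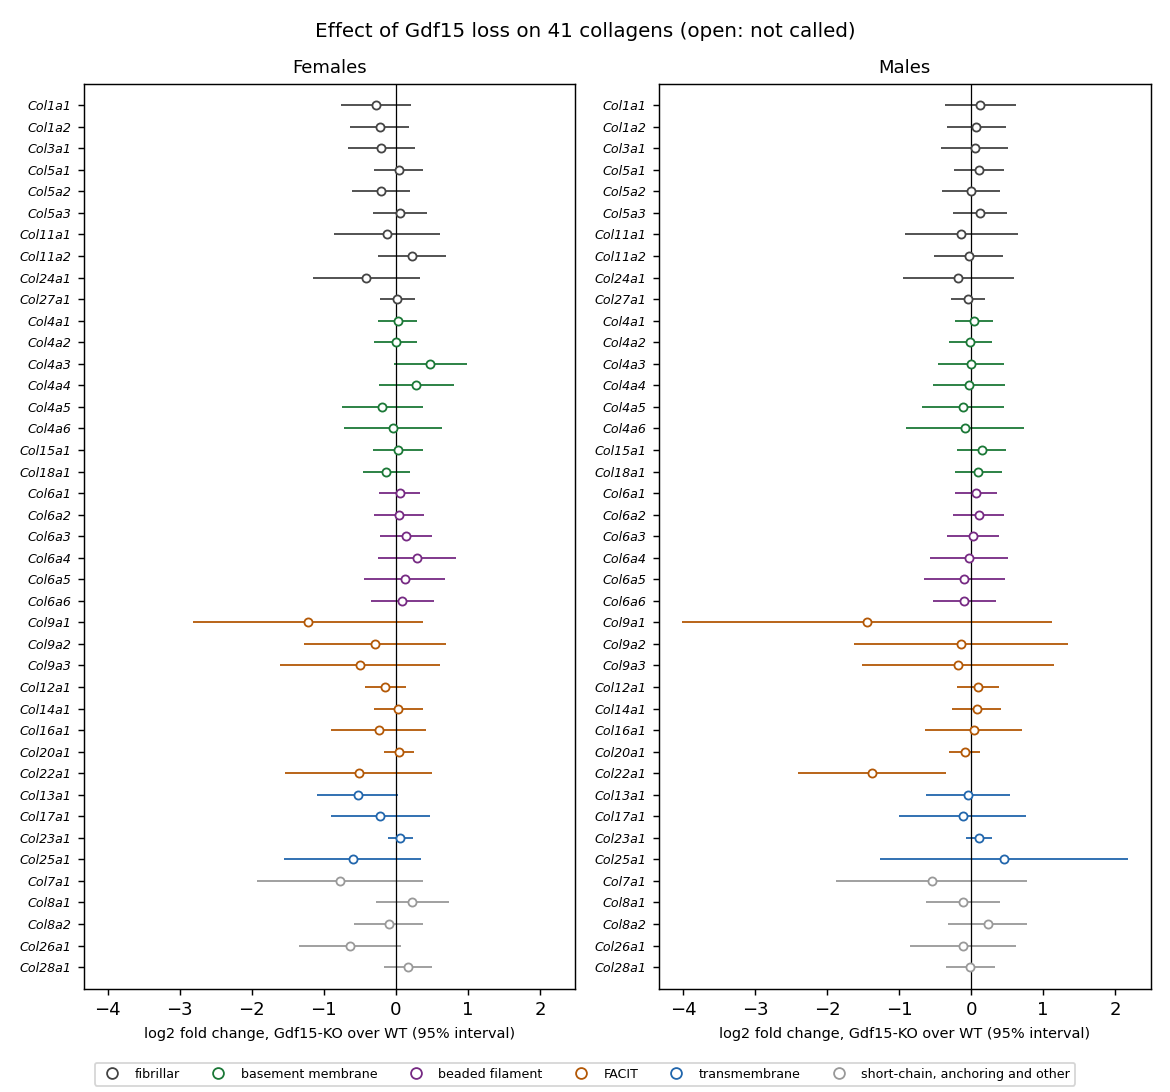
Log2 fold change of Gdf15-KO over WT with its 95% interval (horizontal axes) for each of the 41 collagens tested, coloured by class, in females (left panel) and males (right panel). Every marker is open because 0 collagens were called, and only the interval of Col22a1 in males, from -2.41 to -0.35, lies to one side of 0.

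Within classes, the signs were mixed. In females 6 of the 10 fibrillar chains were negative and 6 of the 6 type VI chains were positive, with medians of -0.16 and 0.11 on the log2 scale. In males 4 of the 10 fibrillar and 3 of the 6 type VI chains were negative, with medians of 0.03 and 0.00153. The negative sign of the main fibril chains in females depended on female WT replicate 4. Without that mouse the log2 fold change in females was 0.04 for Col1a1, -0.00239 for Col1a2 and 0.07 for Col3a1, in place of -0.27, -0.22 and -0.20. The positive sign of the main type VI chains in females likewise depended on female Gdf15-KO replicate 16. Leaving it out gave -0.0469 for Col6a1, -0.0867 for Col6a2 and -0.00392 for Col6a3, in place of 0.0522, 0.0411 and 0.141.

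The collagens with the smallest p in females were Col13a1, Col4a3 and Col26a1. Col13a1, a transmembrane collagen of cell contacts, was at 4.09, 6.06 and 9.94 CPM (lowest, median and highest) in female Gdf15-KO mice, against 5.06, 7.12 and 22.7 CPM in female WT mice. Its log2 fold change was -0.53 with a standard error of 0.27 and an edgeR adjusted p of 0.489, and it was -0.06 without female WT replicate 4. Col4a3, a type IV chain, was at 1.43, 1.59 and 2.01 CPM in female Gdf15-KO mice, against 0.647, 1.03 and 1.90 CPM in female WT mice. Its lowest knockout value lay above the WT median, but the groups overlapped, and the log2 fold change of 0.48 had an edgeR adjusted p of 0.490. Col26a1 had a log2 fold change of -0.64 at a median of 0.384 CPM in Gdf15-KO and 0.444 CPM in WT females, and -0.11 without female WT replicate 4.

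In males the lead was Col22a1, a FACIT chain known from the junctions of muscle and tendon. Its lowest, median and highest values were 0.216, 0.400 and 0.598 CPM in male Gdf15-KO mice, against 0.297, 0.906 and 2.49 CPM in male WT mice. The log2 fold change was -1.38 with a 95% interval of -2.41 to -0.35 and an edgeR adjusted p of 0.746. Skeletal muscle markers varied widely among the same mice. Their summed level ran from 75.7 to 13917 CPM in male Gdf15-KO mice and from 211 to 32113 CPM in male WT mice. The highest Col22a1 and the highest muscle sum were both in male WT replicate 1. Among male Gdf15-KO mice, the highest muscle sum was in replicate 16, with Col22a1 at 0.423 CPM, and the highest Col22a1 was in replicate 17. Of the 12 muscle markers 0 were called between male genotypes, 0 had an unadjusted p under 0.05 and 11 were negative. With a muscle score in the model the log2 fold change of Col22a1 was -0.98, and without male WT replicate 1 it was -0.91. The part of muscle in the Col22a1 values was not tested. The other leads in males, Col23a1 at 0.11 and Col9a1 at -1.45 on the log2 scale, had edgeR adjusted p-values of 0.945 and 0.949. Without male WT replicate 1, Col9a1 was at -0.74.

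A test of whether the knockout effect differed between females and males called 0 of the 41 collagens, as it called 0 (0%) of all genes. At an unadjusted p under 0.05, edgeR gave 0 collagens and 3.48% of all genes, and limma-voom and DESeq2 called 0 collagens, with 43 given an adjusted p by DESeq2. Averaged over the sexes, 0 of the 41 collagens were called beside 0.414% of all genes, with 0 from limma-voom and from DESeq2, which gave an adjusted p for 36. There, 1 collagen, Col22a1, had an unadjusted p under 0.05, as 12.6% of all genes did, with a log2 fold change of -0.95 and an edgeR adjusted p of 0.242. The 62 genes called in the average were 205 without male WT replicate 4 and 104 without male Gdf15-KO replicate 15, with 0 collagens in either case. The average uses the same mice as the comparisons within each sex.

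The machinery that folds, cuts, breaks down and binds collagen was read from 7 gene lists. In folding and crosslinking, 1 of 25 genes was called in each sex, and it was the same gene, Colgalt1, an enzyme that adds galactose to hydroxylysine of collagen. Colgalt1 was at 88.4, 95.7 and 97.2 CPM (lowest, median and highest) in female Gdf15-KO mice, against 116, 125 and 166 CPM in female WT mice. In males it was at 89.0, 96.4 and 115 CPM in Gdf15-KO mice, against 121, 127 and 135 CPM in WT mice. All knockout values lay below all WT values in each sex, as for 0.601% of all genes in females and 0.347% in males. Colgalt1 fell by 0.46 in females (edgeR adjusted p = 0.00129) and by 0.38 in males (edgeR adjusted p = 0.0135) on the log2 scale. The male call was lost on leaving out any 1 of 6 males, Gdf15-KO replicate 13, 15, 16 or 17 or WT replicate 5 or 6, with edgeR adjusted p-values of up to 0.0899 and a log2 fold change of -0.43 to -0.35 whichever mouse was left out. It was also lost with a mammary and epithelial marker score in the model, at -0.32 with an edgeR adjusted p of 0.114. In males, 6 of the 12 markers in that score had an unadjusted p under 0.05 and 0 were called, and their summed level ran from 3.40 to 9.07 CPM in Gdf15-KO and from 5.86 to 27.5 CPM in WT mice. The female call was lost when females were fitted alone, at a log2 fold change of -0.46 with an edgeR adjusted p of 0.0629. Averaged over the sexes, which uses the same mice, the log2 fold change was -0.42. That call was kept whichever mouse was left out, with edgeR adjusted p-values of up to 0.000141.

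Colgalt1 lies at chr8:72063607-72079451 (GRCm39, plus strand), 0.982 Mb from Gdf15, the gene that was deleted. Other than Gdf15, 28 genes were called in females and 29 in males, and 27 and 28 of these lay within 5 Mb of Gdf15, a window chosen after seeing the data. In that window, 21.4% of the 126 genes tested were called in females and 22.2% in males. In the average over the sexes, 61 genes other than Gdf15 were called, and 43 of these (70.5%) lay in the window. Whether the position of Colgalt1 has a part in its lower level was not tested. Comp, a fibril partner with 1.70 ± 0.518 CPM in Gdf15-KO and 2.32 ± 0.542 CPM in WT females and 3.28 ± 0.911 CPM in Gdf15-KO and 4.61 ± 1.24 CPM in WT males (SD, n = 6), lies 0.256 Mb from Gdf15. Its log2 fold change of -0.49 in males had an edgeR adjusted p of 0.876. The collagens nearest to Gdf15 were Col4a1 and Col4a2, on the same chromosome but 59.7 Mb away.

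The other 6 lists gave 0 called genes in either sex under edgeR. They were procollagen processing with 7 genes tested, degradation and its inhibitors with 18, receptors with 9, basement membrane partners with 21, fibril partners with 16 and the TGF-beta axis with 16. At an unadjusted p under 0.05, which 10.9% of all genes passed in females and 5.47% in males, the degradation list had 1 gene in females, Mmp9, a gelatinase of macrophages and neutrophils, and 0 in males. Mmp9 had a mean of 44.8 CPM in female Gdf15-KO and 29.5 CPM in female WT mice, a log2 fold change of 0.60 with an edgeR adjusted p of 0.365, and 0.37 without female Gdf15-KO replicate 17. The fibril list had 1 in females, Postn, and 1 in males, Comp. Postn, which encodes the matrix protein periostin, had a mean of 684 CPM in female Gdf15-KO and 1121 CPM in female WT mice, and its log2 fold change was -0.71 with an edgeR adjusted p of 0.377. Without female WT replicate 4, the mouse with the highest Postn at 2683 CPM, the log2 fold change was -0.24. The remaining lists had 0 in both sexes at that threshold.

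Set against each other, females and males differed in 23 of the 41 collagens (56.1%), where 44.2% of all genes were called. Of these 16 were higher in females, where 23.4% of all genes were, and 7 were lower, where 20.9% were. The median difference over the 41 was 0.18 on the log2 scale, beside -0.02 over all genes. In bulk tissue, fewer cells of a type and less RNA per cell cannot be told apart. The differences were uneven over the classes. FACIT chains had 6 of 8 higher and 0 lower in females, transmembrane collagens 3 higher and 1 lower of 4, and the short-chain, anchoring and other group 3 higher and 0 lower of 5. Basement membrane chains had 2 higher and 3 lower of 8, fibrillar chains 2 higher and 1 lower of 10, and type VI chains 0 higher and 2 lower of 6.

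**Figure D3:**
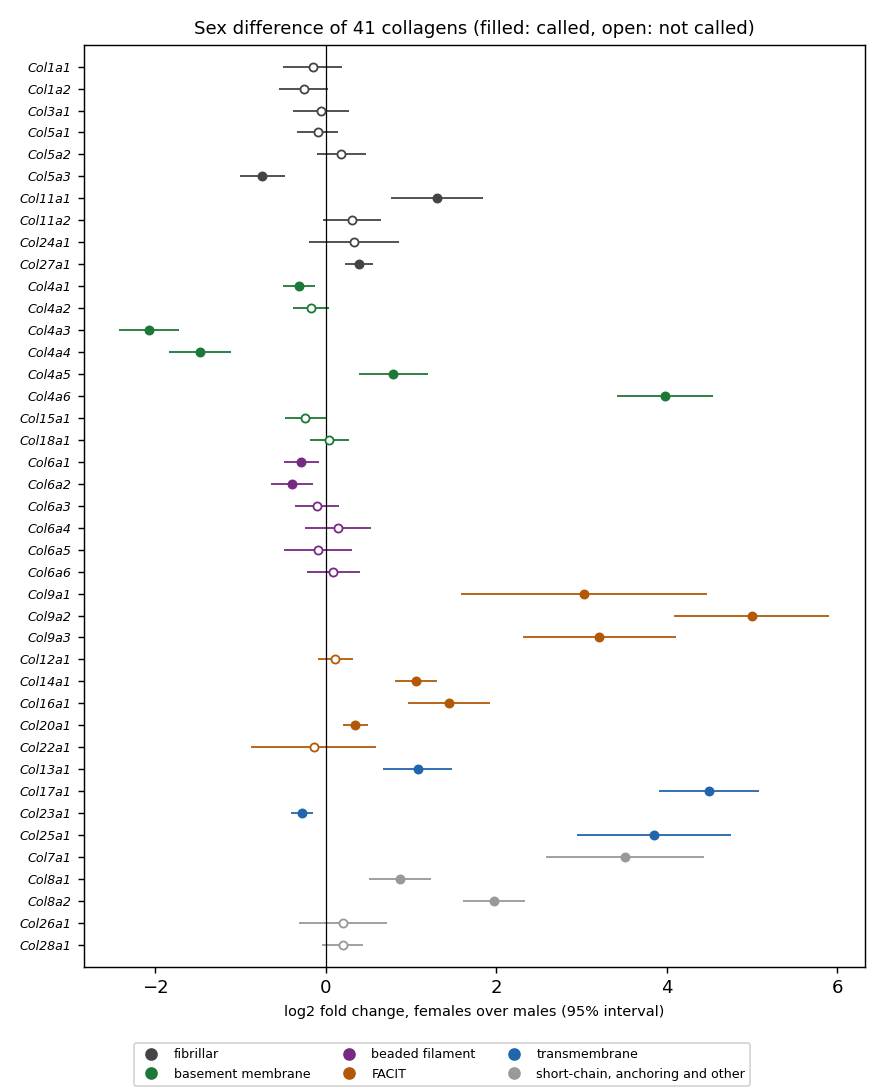
Log2 fold change of females over males with its 95% interval (horizontal axis) for the 41 collagens tested, grouped and coloured by class, with filled markers for the 23 called and open markers for the others. Col9a2 at 4.998, Col17a1 at 4.497 and Col4a6 at 3.98 lie farthest to the right, Col4a3 at -2.07 farthest to the left, and Col1a1, Col1a2 and Col3a1 are open and close to 0.

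The abundant fibril chains were not called between the sexes. Col1a1 had a mean of 1651 ± 665 CPM in females and 1830 ± 437 CPM in males (SD, n = 12), with a log2 difference of -0.15 and a 95% interval of -0.50 to 0.19. For Col3a1 the difference was -0.05 with an interval of -0.38 to 0.28, and for Col1a2 it was -0.26 with an interval of -0.55 to 0.03. The type I chain Col1a2 passed the threshold when female WT replicate 4 was left out, with a log2 difference of -0.37 and an edgeR adjusted p of 0.0129. In contrast, the minor fibril chain Col5a3 was lower in females. It was at 204, 242 and 324 CPM (lowest, median and highest) in female Gdf15-KO mice and 191, 251 and 274 CPM in female WT mice, against 338, 396 and 662 CPM in male Gdf15-KO mice and 258, 404 and 562 CPM in male WT mice. Its log2 difference was -0.75 ± 0.13 (SE, edgeR adjusted p = 5.14e-05), whereas its type V partners Col5a1 at -0.09 and Col5a2 at 0.18 were not called. Col11a1, a fibril nucleating chain best known from cartilage, was higher in females by 1.31 on the log2 scale, at 3.44 ± 1.86 CPM in females and 1.39 ± 0.581 CPM in males (SD, n = 12). Col27a1, also best known from cartilage, was higher by 0.39.

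Among the FACIT chains, Col14a1, which binds the surface of type I fibrils, was the most abundant. It was at 200 to 339 CPM with a median of 255 in the 12 females, against 83.5 to 186 CPM with a median of 121 in the 12 males. The sexes did not overlap, and the log2 difference was 1.06 ± 0.12 (SE, edgeR adjusted p = 1.12e-07). Col16a1, found near fibrils and at epithelial borders, was at 58.5 to 291 CPM in females against 27.5 to 49.8 CPM in males, a log2 difference of 1.45. All 3 type IX chains, which coat cartilage fibrils and occur in some epithelia, were higher in females, Col9a2 by 4.998, Col9a3 by 3.21 and Col9a1 by 3.03. Col9a2 reached 6.39 to 65.2 CPM in females and 0.186 to 0.761 CPM in males. Acan, which encodes the main proteoglycan of cartilage, was at 0.0881 CPM or less in each female, while the 2 cartilage and bone markers of 10 that could be tested, Sox9 and Snorc, were both higher in females. Their part was not tested. Without female WT replicate 4 the log2 differences were 4.49 for Col9a2, 2.56 for Col9a3 and 2.09 for Col9a1, each still called. Col20a1 was higher by 0.35, while Col12a1 at 0.11 and Col22a1 at -0.14 were not called.

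The transmembrane and anchoring collagens of epithelial borders showed wide gaps between the sexes. Col17a1, the hemidesmosome collagen that holds basal epithelial cells, was at 18.6, 29.1 and 74.2 CPM (lowest, median and highest) in female Gdf15-KO mice and 23.5, 28.7 and 105 CPM in female WT mice. In males it was at 1.26, 1.45 and 2.199 CPM in Gdf15-KO mice and 1.08, 1.75 and 2.14 CPM in WT mice. The sexes were 22.6-fold apart without overlap, a log2 difference of 4.497 ± 0.29 (SE, edgeR adjusted p = 6.58e-12). Col7a1, the anchoring fibril collagen beneath such cells, was at 15.5 to 205 CPM in females against 1.55 to 8.70 CPM in males, a log2 difference of 3.51. Col25a1, a transmembrane collagen known from neurons and muscle innervation, was at 0.357 to 5.22 CPM in females against 0 to 0.245 CPM in males, a log2 difference of 3.85. Col13a1 was higher by 1.08, and Col23a1 was lower, at -0.28. Both type VIII chains, the network collagens of endothelium, were higher in females, Col8a2 by 1.97 and Col8a1 by 0.87.

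Markers of mammary gland and epithelium also differed between the sexes. All 12 such markers passed the test in the female direction, and the median of their log2 differences was 8.17. Their summed level ran from 831 to 1155 CPM in female Gdf15-KO and from 993 to 1964 CPM in female WT mice, against 3.40 to 9.07 CPM in male Gdf15-KO and 5.86 to 27.5 CPM in male WT mice. Krt5, the basal keratin, was 41.2 to 173 CPM in female Gdf15-KO and 56.3 to 297 CPM in female WT mice, and 0 to 0.171 CPM in male Gdf15-KO and 0 to 1.02 CPM in male WT mice. The mouse with 297 CPM was female WT replicate 4 and the one with 173 CPM was female Gdf15-KO replicate 17. These were also the highest of their groups for Col4a6, Col7a1, Col9a1, Col9a2, Col9a3, Col16a1, Col17a1 and Col25a1. Female Gdf15-KO replicate 17 was also the highest of its group for Krt14 at 79.7 CPM and Epcam at 118 CPM. Its Krt8 at 162 CPM and Krt18 at 166 CPM lay below the group means of 175 and 181 CPM. Its summed marker level of 1098 CPM lay below the 1155 CPM of female Gdf15-KO replicate 16. The part of mammary and epithelial cells in the sex difference was not tested. With both mice left out, a choice made after seeing the data, 24 collagens were called, the 23 and Col1a2.

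Marker sums of several other cell types had lower means in females, as Col6a1, Col6a2 and Col4a1 did. Col6a1 was at 525 ± 84.4 CPM in females and 640 ± 116 CPM in males (SD, n = 12), a log2 difference of -0.29. Col6a2 was at 437 ± 94.7 CPM in females and 576 ± 119 CPM in males, a log2 difference of -0.40, while Col6a3, the third chain of the same filament, differed by -0.10 with an interval of -0.36 to 0.16. Of 12 adipocyte markers 9 were lower in females, where 20.9% of all genes were, and their summed level ran from 12441 to 14891 CPM in female Gdf15-KO and from 11696 to 17451 CPM in female WT mice, against 14068 to 23797 CPM in male Gdf15-KO and 17549 to 22378 CPM in male WT mice. Of 10 endothelial markers 6 were lower and 1 was higher in females, where 23.4% of all genes were higher, with sums of 899 to 1163 CPM in female Gdf15-KO and 892 to 1099 CPM in female WT mice, against 1054 to 1245 CPM in male Gdf15-KO and 1026 to 1203 CPM in male WT mice. Mean sums of fibroblast and preadipocyte markers were also lower, at 11994 CPM in female Gdf15-KO and 10216 CPM in female WT mice. In males they were 15206 CPM in Gdf15-KO and 14218 CPM in WT mice. Such a sum is carried by the most abundant markers of its list. Pdgfra, a member of the list, went the other way, at means of 191 and 196 CPM in female Gdf15-KO and WT mice, against 131 and 126 CPM in males. Fap, a fibroblast protease outside the list, was also higher in females, at means of 37.7 CPM against 19.8 CPM in males. Macrophage and Schwann cell sums had lower means in both female groups, and pericyte and smooth muscle sums had higher means. The part of these cells in the collagen values was not tested.

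The sex difference was read again within each genotype. WT females against WT males gave 20 called collagens, where 24.1% of all genes were called, and Gdf15-KO females against Gdf15-KO males gave 20, where 32.0% were. Both sets were the 23 without Col4a1, Col6a1 and Col6a2, whose log2 differences lay between -0.43 and -0.28 in both. Of the 41 collagens, 11 did not overlap between the 12 females and the 12 males, 9 with all females higher and 2 with all females lower. Over all genes these shares were 6.88%, 5.73% and 1.15%.

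The type IV genes form 3 pairs that lie head to head, with 317 bp between the canonical start sites of Col4a1 and Col4a2, 103 bp for Col4a3 and Col4a4 and 1282 bp for Col4a5 and Col4a6. Both chains of the first pair build the basement membranes of most tissues, the second pair is known from kidney and other specialised membranes, and Col4a6 is known from epithelial and smooth muscle basement membranes. In GRCm39 the pairs lie on chromosome 8 (Col4a1 at chr8:11248423-11362826 and Col4a2 at chr8:11362471-11499287), chromosome 1 (Col4a4 at chr1:82426144-82564800 and Col4a3 at chr1:82564642-82699780) and chromosome X (Col4a6 at chrX:139948399-140257072 and Col4a5 at chrX:140258354-140472231).
The stretch around the start site, from 250 bases before it to 50 after, is shown 5′ to 3′ along the gene's strand for a chain of each pair, and for both chains of the pair whose levels differed most between the sexes, since the results below follow the pairs. Sequences are from RefSeq on GRCm38.p6, and capitals mark the GC box GGGCGG and the CCAAT box, each searched on both strands (CCGCCC and ATTGG on the other strand). Matches of both can share letters at an edge.
Col4a1: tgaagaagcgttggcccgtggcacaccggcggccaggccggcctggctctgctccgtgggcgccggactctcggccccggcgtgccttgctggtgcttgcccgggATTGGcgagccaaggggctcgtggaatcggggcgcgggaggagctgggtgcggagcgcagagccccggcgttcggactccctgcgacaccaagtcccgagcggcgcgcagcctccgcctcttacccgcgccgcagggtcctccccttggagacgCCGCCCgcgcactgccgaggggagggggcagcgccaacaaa
Col4a4: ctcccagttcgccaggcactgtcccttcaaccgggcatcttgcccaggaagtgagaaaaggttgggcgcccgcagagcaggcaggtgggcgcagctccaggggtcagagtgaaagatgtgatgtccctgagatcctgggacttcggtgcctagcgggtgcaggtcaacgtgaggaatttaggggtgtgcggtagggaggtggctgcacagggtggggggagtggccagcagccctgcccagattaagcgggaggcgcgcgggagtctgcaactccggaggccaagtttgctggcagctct
Col4a5: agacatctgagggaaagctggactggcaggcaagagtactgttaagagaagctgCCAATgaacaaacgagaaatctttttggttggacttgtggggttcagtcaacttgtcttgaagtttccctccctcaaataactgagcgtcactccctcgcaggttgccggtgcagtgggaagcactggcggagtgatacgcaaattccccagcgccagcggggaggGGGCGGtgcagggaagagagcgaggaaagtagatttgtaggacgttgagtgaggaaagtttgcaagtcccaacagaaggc
Col4a6: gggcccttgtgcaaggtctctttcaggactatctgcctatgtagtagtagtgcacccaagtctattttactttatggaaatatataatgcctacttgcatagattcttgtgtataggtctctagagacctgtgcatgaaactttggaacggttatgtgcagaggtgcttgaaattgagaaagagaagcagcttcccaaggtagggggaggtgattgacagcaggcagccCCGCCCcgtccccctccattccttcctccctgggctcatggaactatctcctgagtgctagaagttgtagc
These windows are chr8:11312777-11313076 (minus strand) for Col4a1, chr1:82586800-82587099 (minus strand) for Col4a4, chrX:141475169-141475468 (plus strand) for Col4a5 and chrX:141474027-141474326 (minus strand) for Col4a6. Col4a1 held 1 GC box and 1 CCAAT box, Col4a5 held 1 of each, Col4a6 held 1 GC box and 0 CCAAT boxes, and Col4a4 held 0 of either. Of 32851 promoter windows of this length, 35.7% held a GC box and 37.4% a CCAAT box, and 60.5% and 34.2% of the 38 collagen windows did. Such a match describes the letters and not a bound site.

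The pairs differed in direction between the sexes. Col4a3 was at 1.43 to 2.01 CPM in female Gdf15-KO and 0.647 to 1.90 CPM in female WT mice, against 3.35 to 8.24 CPM in male Gdf15-KO and 3.31 to 8.003 CPM in male WT mice. All females lay below all males, with a log2 difference of -2.07 ± 0.17 (SE, edgeR adjusted p = 6.65e-10). Its partner Col4a4 was at 2.75 to 8.01 CPM in females against 9.24 to 21.4 CPM in males, a log2 difference of -1.48 ± 0.18 (SE, edgeR adjusted p = 3.82e-07), again without overlap.

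The pair on chromosome X was higher in females. Col4a6 was at 14.8, 30.4 and 65.3 CPM (lowest, median and highest) in female Gdf15-KO and 20.7, 25.9 and 83.6 CPM in female WT mice, against 1.09, 2.10 and 3.09 CPM in male Gdf15-KO and 1.19, 2.40 and 3.07 CPM in male WT mice. The sexes were 15.8-fold apart without overlap, with a log2 difference of 3.98 ± 0.27 (SE, edgeR adjusted p = 2.85e-11). Col4a5 was higher by less, 0.79 ± 0.20 (SE, edgeR adjusted p = 0.00215), and overlapped, at 19.8 to 88.7 CPM in females against 15.3 to 33.2 CPM in males. Per kb of transcript, the ratio of Col4a6 to Col4a5 was 0.865 ± 0.154 in female Gdf15-KO and 0.779 ± 0.0808 in female WT mice, against 0.0934 ± 0.0133 in male Gdf15-KO and 0.0919 ± 0.0143 in male WT mice (SD, n = 6). Between the sexes, this ratio and Col4a6 itself were higher in females, as were the epithelial markers given above, whose part was not tested. Among females, the mean ratio was higher in Gdf15-KO mice. Their mean marker sum was lower, at 1014 CPM against 1236 CPM in WT females. Single mice weighed on these means. The highest Gdf15-KO ratio, 1.17, was in replicate 17. Female WT replicate 4 had both the highest ratio, 0.931, and the highest marker sum, 1964 CPM, of the WT females. Knockout and WT ratios overlapped within each sex.

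**Figure D4:**
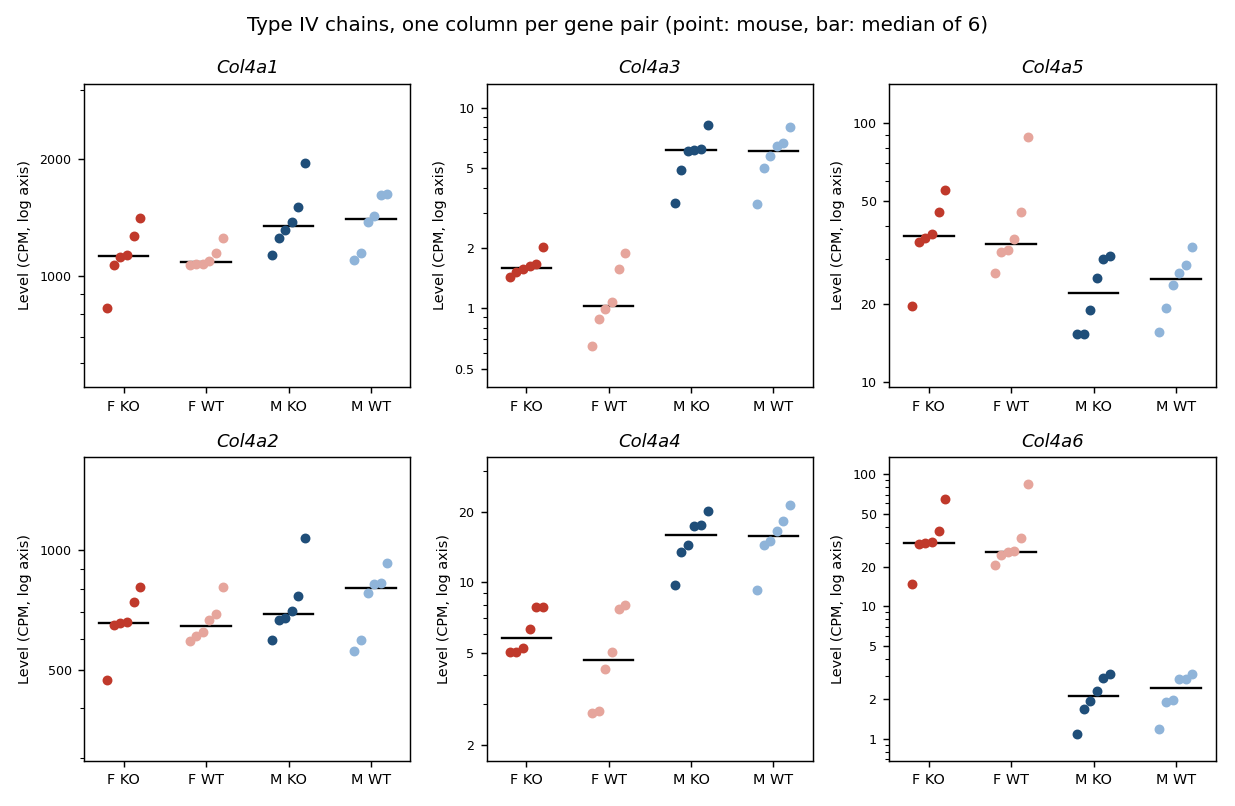
Level in CPM (logarithmic vertical axes, each panel with its own range) of the 6 type IV chains in each mouse by group (F female, M male, KO Gdf15-KO), with the median of 6 mice as a bar and a column of panels for each gene pair. Females and males separate for Col4a3, Col4a4 and Col4a6 and overlap for Col4a1, Col4a2 and Col4a5, and Gdf15-KO and WT points overlap in every panel.

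The pair on chromosome 8 had the smallest log2 differences of the 3 pairs. Col4a1 had a mean of 1129 ± 140 CPM in females and 1403 ± 246 CPM in males (SD, n = 12), a log2 difference of -0.31 (edgeR adjusted p = 0.00778), and Col4a2 was at 665 ± 93.4 CPM in females and 750 ± 150 CPM in males, a log2 difference of -0.17 that was not called. Their ratio per kb was 1.83 ± 0.131 over the 24 mice. Col15a1 and Col18a1, basement membrane collagens whose ends can be released as fragments, had log2 differences of -0.24, with an interval of -0.48 to 0.01, and 0.04, with an interval of -0.19 to 0.27.

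The chains of type I collagen, which share a helix, kept a narrow ratio from mouse to mouse. The ratio of Col1a1 to Col1a2 per kb was 0.703 ± 0.0270 in female Gdf15-KO and 0.709 ± 0.0714 in female WT mice, and 0.672 ± 0.0415 in male Gdf15-KO and 0.656 ± 0.0641 in male WT mice (SD, n = 6). The levels themselves varied more. Over the 24 mice the ratio was 0.685 ± 0.0551, while Col1a1 was at 293 ± 94.1 and Col1a2 at 425 ± 112 CPM per kb (SD). On the log2 scale, the standard deviation within groups was 0.418 for Col1a1 and 0.345 for Col1a2. Its median was 0.41 over the 41 collagens, beside 0.19 over all genes.

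12 relations between pairs of chains were computed across the 12 mice of a sex, genotypes together, with permutation tests in both directions whose smallest p is 1e-05 and Benjamini-Hochberg adjustment over the 12. The adjusted p given with each is for the Pearson r unless named. Col1a1 and Col1a2 gave a Pearson r of 0.991 in females (Spearman 0.972, adjusted permutation p = 3e-05) and 0.953 in males (Spearman 0.916, adjusted permutation p = 4.5e-05). Without the 2 mice farthest from the median of Col1a1, r was 0.970 in females and 0.928 in males. Col4a1 and Col4a2 gave 0.947 in females (Spearman 0.804, adjusted permutation p = 6.67e-05) and 0.963 in males (Spearman 0.930, adjusted permutation p = 3e-05), and 0.856 and 0.934 without 2 mice. For Col6a1 and Col6a2, r was 0.929 in females (Spearman 0.909, adjusted permutation p = 3.43e-05) and 0.986 in males (Spearman 0.972, adjusted permutation p = 3e-05), and 0.838 and 0.965 without 2 mice. Partners of each of these helices thus varied together over mice in both sexes. Col1a1 and Col3a1, which encode chains of separate helices, did so as well, with an r of 0.967 in females (Spearman 0.951, adjusted permutation p = 3.43e-05) and 0.944 in males (Spearman 0.944, adjusted permutation p = 3.43e-05), and 0.890 and 0.921 without 2 mice.

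The other relations differed by pair and sex. Col1a1 and Col4a1 gave 0.535 in females (Spearman 0.755, adjusted permutation p = 0.106 for Pearson and 0.00746 for Spearman) and 0.698 in males (Spearman 0.580, adjusted permutation p = 0.0139 for Pearson and 0.0563 for Spearman). Without 2 mice these were 0.470 and 0.734. Col4a1 and Col15a1, both of basement membranes, gave 0.327 in females (Spearman 0.510, adjusted permutation p = 0.296 for Pearson and 0.0945 for Spearman) and 0.934 in males (Spearman 0.923, adjusted permutation p = 3e-05), and 0.629 and 0.887 without 2 mice. Whether a relation differed between the sexes was not tested. Values of a mouse share its library and its scaling.

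**Figure D5:**
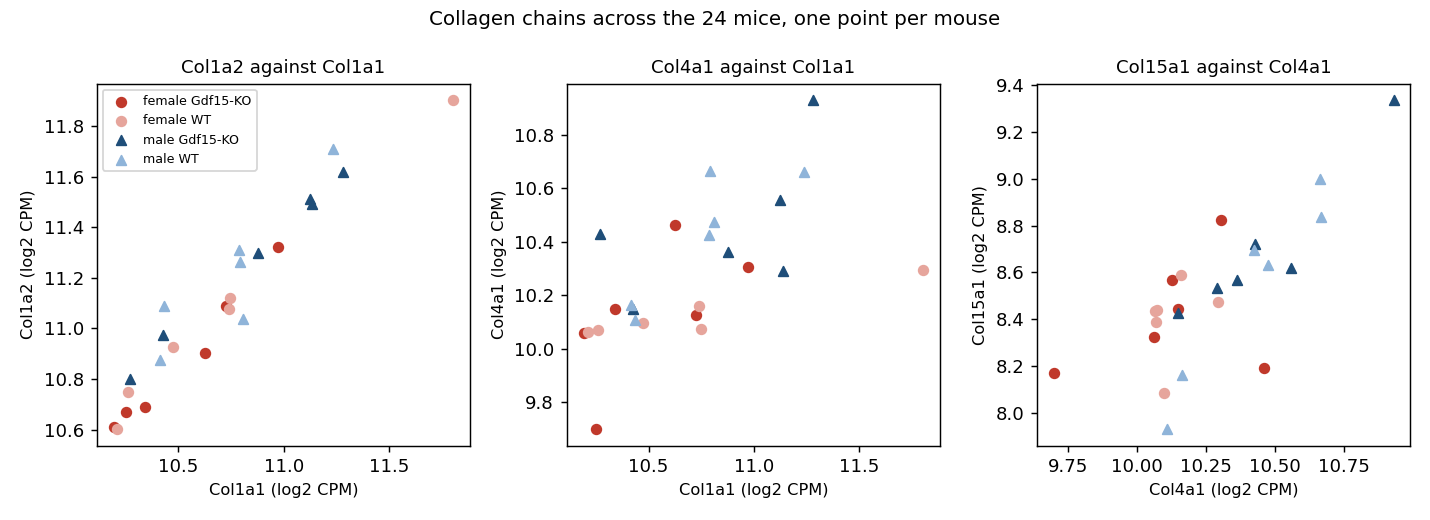
Log2 CPM of Col1a2 against Col1a1 (left), Col4a1 against Col1a1 (middle) and Col15a1 against Col4a1 (right), with a point for each of the 24 mice, circles for females and triangles for males, darker for Gdf15-KO. Points of the left panel lie along a line (r of 0.991 in females and 0.953 in males), those of the middle panel scatter, and female WT replicate 4 lies far to the right in the first 2 panels.

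Between the sexes, the partner lists held genes called in both directions, beside 23.4% of all genes higher and 20.9% lower in females. The mammary and epithelial markers given above differed between the same mice, and their part in these values was not tested. Basement membrane partners had 11 of 21 higher and 5 lower in females. Lama1, a laminin chain of epithelia, was at 7.98 CPM in female Gdf15-KO and 7.79 CPM in female WT mice, against 0.177 CPM in male Gdf15-KO and 0.217 CPM in male WT mice (medians), with Lama5, another laminin chain, higher by 1.27 on the log2 scale. Degradation genes had 10 of 18 higher and 3 lower, with Mmp15, a membrane-bound protease, higher by 1.55, Fap, a fibroblast protease, by 0.93 and Reck, a protease inhibitor, by 0.77. Receptors had 6 of 9 higher and 1 lower, with Itga2, a collagen-binding integrin chain, higher by 0.86. Folding and crosslinking genes had 5 higher and 5 lower of 25, among them Plod2, a lysyl hydroxylase, higher by 1.63 and Plod1, of the same family, lower at -0.33. Processing genes had 2 higher and 1 lower of 7, with the procollagen peptidase Adamts3 higher by 2.197 and Pcolce, an enhancer of procollagen cleavage, lower at -0.85. Fibril partners had 5 higher and 5 lower of 16, and Postn, at 684 CPM in female Gdf15-KO and 1121 CPM in female WT mice, against 142 CPM in male Gdf15-KO and 148 CPM in male WT mice (means), was higher by 2.60. The TGF-beta axis had 5 higher and 2 lower of 16, with Tgfb3, a TGF-beta ligand, higher by 1.04 and its target Ccn2 by 1.45.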

How the data were processed

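Per the labels, the authors extracted total RNA from sWAT of 24 mice with TRIzol, and BGI sequenced it as paired reads. The deposited table holds RSEM expected counts for 19175 genes. The submitters' processing notes name Bowtie2 2.2.5 and RSEM 1.2.8 on GRCm39. Expected counts share reads between similar genes. Of the 44 collagens, 42 held only whole values, and Col6a5 and Col6a6 held decimals from shared reads, so their levels are less certain. The values were rounded to whole numbers. Library totals ran from 22521358 to 24500575. Genes were kept with filterByExpr (minimum count 10, minimum total 15), leaving 14982, and scaled by TMM. edgeR 4.0.16 (R 4.3.3) fitted 1 mean for each of the 4 groups with the quasi-likelihood test and Benjamini-Hochberg adjustment, with calls at an adjusted p under 0.05. All 24 mice entered the fit, so the groups shared an estimate of the spread. The sex difference averages both genotypes. Intervals are at 95%. CPM were computed with TMM library sizes, and levels per kb used canonical transcripts of GENCODE mouse release 39. Log2 CPM for relations had a prior count of 2.

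Alternatives were limma-voom (limma 3.58.1), DESeq2 1.42.0, other scalings and filters, marker scores as covariates, a replicate block and leaving out each mouse. Fits were tested on simulated data. No other batch label was given, and no pair of mice in a group agreed within sampling noise. Nothing in the sources says that mice came from separate litters, so p-values measure the spread between these mice. Positions are from GRCm39, and the promoter windows are from RefSeq on GRCm38.p6, which held 38 of the 44 collagens. The members and lists were chosen with earlier results of these data known. Named were all collagens called between genotypes, up to 20 called between sexes, the 13 main chains, the 3 with the smallest p in each genotype comparison, up to 3 genes of each partner list in each comparison, and Gdf15. The 3 untested collagens and the markers were named outside that rule.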

Additional observations from a re-analysis of the deposited data

Results flagged for a closer look

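In each of the 4 groups of 6 mice, the highest or lowest value of 35 named collagens was compared with the rest of its group, and 29 of 140 such sets held a value far from the other mice. The nominal rate of this rule is about 1 in 20 groups, for normally distributed values. The rate for these CPM values was not computed. The values were not independent, since 22 collagens and 5 mice account for them, and 16 of the 29 came from female WT replicate 4.

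In female WT replicate 4 the fibrillar and fibril-bound chains stood high, with Col1a1 at 3580 CPM, Col1a2 at 3827 CPM, Col3a1 at 7423 CPM, Col11a1 at 8.78 CPM, Col12a1 at 39.6 CPM and Col16a1 at 291 CPM. The type IX chains were high as well, Col9a1 at 7.24 CPM, Col9a2 at 65.2 CPM and Col9a3 at 41.01 CPM. So were Col4a5 at 88.7 CPM, Col4a6 at 83.6 CPM, Col7a1 at 205 CPM, Col13a1 at 22.7 CPM, Col17a1 at 105 CPM, Col25a1 at 5.22 CPM and Col26a1 at 1.66 CPM. Krt5 was at 297 CPM in this mouse, and whether the 2 are linked was not tested.

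In female Gdf15-KO replicate 17, Col7a1 was at 70.7 CPM, Col9a1 at 1.81 CPM, Col9a2 at 39.2 CPM, Col9a3 at 19.6 CPM, Col17a1 at 74.2 CPM and Col25a1 at 2.33 CPM, each the highest of the group, with Krt5 at 173 CPM. Krt8 at 162 CPM and Krt18 at 166 CPM lay below the group means in this mouse. In male Gdf15-KO replicate 15, Col4a2 was at 1072 CPM, Col5a3 at 662 CPM, Col15a1 at 646 CPM and Col18a1 at 269 CPM. Male Gdf15-KO replicate 14 had the lowest Col20a1 of its group at 5.72 CPM and the highest Col27a1 at 26.9 CPM, and male Gdf15-KO replicate 18 had the highest Col9a3 at 1.26 CPM.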

How the results depend on the processing

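The count of collagens called between genotypes was 0 in each sex, in the average and in the difference of the effects under each alternative that kept an adjusted p. At an unadjusted p under 0.05 it was 1 in males and 1 in the average. Leaving out each mouse gave 0 to 0. Between the sexes the count was 23, or 22 with DESeq2, where the adjusted p of Col9a1 was not given, 20 with 10 counts or more in every mouse, where Col9a1, Col9a2 and Col25a1 were not tested, and 23 to 24 on leaving out each mouse. The 24 came without female WT replicate 4, adding Col1a2, or without male WT replicate 2, adding Col15a1 at -0.30 with an edgeR adjusted p of 0.0308. The cause was not tested. Over the log2 fold changes of the named genes, 6109 of 6130 comparisons with an alternative kept their side of the threshold, 17 lost their call, 1 had no adjusted p under DESeq2 and 3 gained a call. In 160 the sign turned, with the gene called in 0 of these under either setting, among them Col1a1 and Col3a1 in females without female WT replicate 4. Replicate numbers are shared by the sexes, but no source says that they tie mice, so the numbers were not taken as pairs. Of 12 same-numbered pairs, 9 had a correlation over 0.1 and the lowest was -0.56. In 4 pairs the female correlated best with the male of the same number. These values do not decide whether the numbers tie mice. With a replicate block, 23 collagens were called between the sexes and 0 in the difference of the effects. At this depth 3 of the 44 collagens were too low to test.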
